A study of Mus musculus with 12 samples.

Results

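Transcripts of plasma carrier proteins were followed in whole mouse kidney. Their 8 genes, Alb, Ttr, Rbp4, Trf, Apoe, Apoa1, Apoh and Ambp, were picked by symbol from the platform annotation of the arrays, and all 8 were measured among 19934 genes. Where a gene has several probe sets the brightest over the 12 arrays was to be taken, but each of the 8 had 1 probe set, so measured levels decided nothing in that step. Alb and Ttr were known beforehand to be low in the mutant kidneys, so their differences involving mutants are given as a description without a test. The rest of the list was also chosen with earlier results of these data known, so the p-values of its mutant differences are not independent of that choice.

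Kidney RNA of female mice of the C57BL/6 background, fed a high-protein diet for 2 months, was hybridised to 12 arrays, 4 per genotype. The labels call the 4 arrays replicates without saying that each is a separate mouse, so p-values measure the spread between these samples. The first group was the Mut-/- mutants, labelled Mut -/- ;TgINS-Alb-Mut, which lack Mut (current symbol Mmut, the gene of mitochondrial methylmalonyl-CoA mutase) and carry a Mut transgene driven by albumin gene sequence. They were compared with Mut+/- heterozygotes and Mut+/+ wild-type mice, for which the labels name no transgene, so effects of the transgene and of the missing enzyme cannot be told apart. An albumin promoter directs expression mainly to hepatocytes, and whether the Alb probe set reads any part of the transgene was not determined. All 3 groups ate the same diet, the ages of the mice are not given in the sources used here, and the comparisons asked which kidney transcripts differ between the mutants and their controls.

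Hepatocytes make most of the circulating protein of these genes, and kidney cells hold smaller amounts of the transcripts. Small carriers and part of the albumin pass the glomerular filter and are taken up by the proximal tubule through the receptors megalin and cubilin. Transthyretin and retinol-binding protein circulate as a complex, which keeps the small retinol carrier from being filtered. The arrays measured transcripts of the kidney and not protein taken up from the filtrate.

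Promoter sequences from RefSeq (build GRCm38.p6) were on hand for 6 of the 8 genes, namely Alb, Rbp4, Apoe, Apoa1, Apoh and Ambp, with 9 start sites in all. The sequence of Alb is shown because the transgene carries the name of this gene, and that of Rbp4, at the downstream of its start sites, because Rbp4 was lower in the mutants too. Each runs from 250 bases before to 50 bases after the start site, 5′ to 3′ on the strand of the gene. Alb lies at chr5:90460620-90460919 on the plus strand and Rbp4 at chr19:38124762-38125061 on the minus strand. Capitals mark short motifs found on either strand. The first is GTTAAT, the core bound by the liver-enriched factor HNF1. Another is the CCAAT box, spelled as its name. The TATA box was searched as TATAAA, a signal for placing the start of transcription. The GC box was searched as GGGCGG, which binds factors of the Sp family. None of the marked matches overlap.
Alb: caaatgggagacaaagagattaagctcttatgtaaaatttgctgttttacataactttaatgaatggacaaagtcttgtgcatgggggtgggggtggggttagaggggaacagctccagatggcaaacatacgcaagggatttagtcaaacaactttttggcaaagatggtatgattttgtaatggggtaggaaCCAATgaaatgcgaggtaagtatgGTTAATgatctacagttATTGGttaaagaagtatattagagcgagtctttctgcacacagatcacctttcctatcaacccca
Rbp4: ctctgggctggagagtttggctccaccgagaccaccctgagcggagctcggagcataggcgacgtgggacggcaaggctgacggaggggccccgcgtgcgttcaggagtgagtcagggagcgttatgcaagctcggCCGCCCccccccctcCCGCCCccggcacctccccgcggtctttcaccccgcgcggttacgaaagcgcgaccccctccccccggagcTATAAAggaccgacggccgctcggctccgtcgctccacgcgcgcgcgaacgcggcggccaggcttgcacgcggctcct
The Alb promoter held the HNF1 core beginning 32 bases before the start site and CCAAT boxes beginning 56 and 15 bases before it. The Rbp4 promoter shown held a TATA box 28 bases before the start site and GC boxes beginning 114 and 99 bases before it. The HNF1 core was present in 7.1% of 32851 promoters of this length, the CCAAT box in 37.4%, the TATA box in 13.6% and the GC box in 35.7%. Among the 6 genes the HNF1 core was found in promoters of 2, Alb and, at 1 of its 3 start sites, Apoe. These are matches of letters only.

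Values are log2 RMA values of probe sets, on which a difference of 1 is a doubling. Levels of single genes are compared between mice and not with those of other genes, since probe sets differ in brightness. Marker sums and positions against the array median do set genes side by side, and so depend on that brightness. Mmut, the targeted gene, ran from 8.20 to 8.47 in mutants, from 9.87 to 9.97 in heterozygotes and from 10.47 to 10.60 in wild-type mice, so every array followed its label, although where the probes lie relative to the deleted part was not determined. The tissue also followed its label: 13 of 14 proximal tubule markers and all 11 markers of other nephron segments and podocytes lay above the array median on every array. Mutant replicate 3 stood apart. Its 7 adrenal markers summed to 15468.1 on the linear scale, against 480.7 to 528.0 in the other mutants, 503.0 to 580.6 in heterozygotes and 464.3 to 549.1 in wild-type mice, and its Cyp11b1, a gene of corticosteroid synthesis, read 12.65 where no other array passed 6.58. The main results below are therefore also given without it. Mutant replicate 2 had the highest sum of 6 blood cell markers, 5381.6, against 1351.5 to 2414.7 in the other mutants. Groups of 4 arrays limit the precision, and in whole kidney fewer cells of a type and less RNA per cell cannot be told apart.

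**Figure D1:**
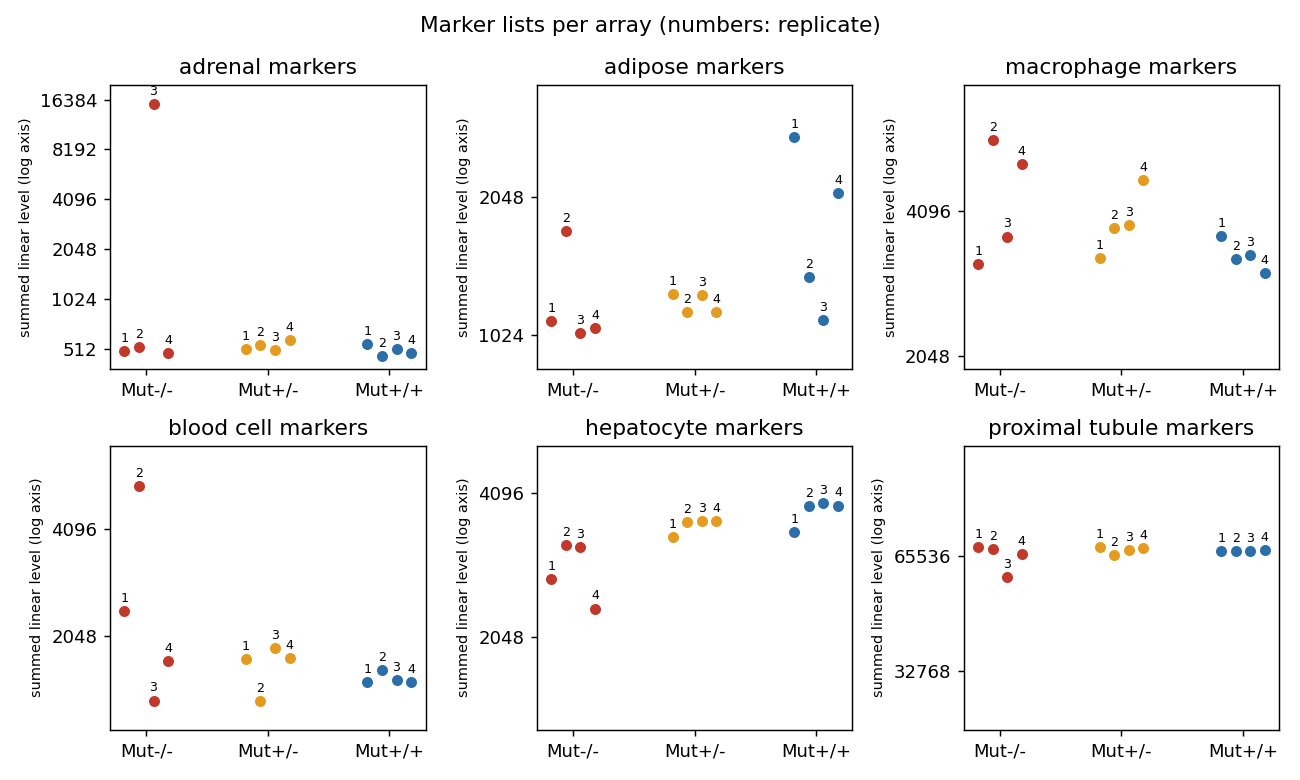
Summed linear level of 6 lists of cell type markers on each array (vertical log axis, number beside a point: replicate), with mutants left, heterozygotes in the middle and wild-type mice right. Mutant replicate 3 alone is high in adrenal markers, mutant replicate 2 is highest in blood cell markers, and wild-type replicates 1 and 4 are the highest in adipose markers.

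Alb, Ttr and Rbp4 were lower in mutant kidneys, Apoe was higher, and Trf, Apoa1, Apoh and Ambp did not pass the test between mutants and wild-type mice. Alb encodes albumin, which carries fatty acids, bilirubin and hormones and holds water in the circulation. It read 8.49, 8.37, 7.56 and 8.36 in mutants, 9.61, 10.19, 9.75 and 9.94 in heterozygotes and 9.43, 9.86, 10.24 and 9.95 in wild-type mice. All mutants lay below all controls, while heterozygotes and wild-type mice overlapped over nearly their whole range. The mutant mean of 8.19 ± 0.42 was 3.2-fold below the wild-type mean of 9.87 ± 0.34 (SD, n = 4 each; log2 fold change -1.68, SE 0.20) and 3.21-fold below the heterozygote mean of 9.87 ± 0.25. Mutant replicate 3, the array with adrenal markers, was the lowest of all, and without it Alb was 2.77-fold below wild type. Between heterozygotes and wild type no difference was called (log2 fold change 0.00, 95% interval -0.44 to 0.44, limma adjusted p = 0.998).

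Ttr encodes transthyretin, which carries thyroxine and, through retinol-binding protein, retinol. It read 8.99, 8.56, 8.36 and 8.26 in mutants, 10.44, 10.51, 9.55 and 10.40 in heterozygotes and 10.29, 10.98, 11.16 and 10.96 in wild-type mice. The mutants lay below every control, and heterozygote replicate 3 lay between the mutants and the remaining controls. Mutants averaged 8.54 ± 0.32, 4.93-fold below the wild-type mean of 10.85 ± 0.38 (log2 fold change -2.30, SE 0.23) and 3.2-fold below the heterozygote mean of 10.22 ± 0.45 (SD, n = 4 each). Without mutant replicate 3 it was 4.73-fold below wild type. Heterozygotes lay 1.54-fold below wild type, a difference that did not pass the test over all genes (log2 fold change -0.62, 95% interval -1.11 to -0.13, limma adjusted p = 0.321). Across the 3 genotypes the order of means was therefore mutant, heterozygote and wild type for Ttr. The arrays of the upper pair overlapped, and their difference did not pass after adjustment over all genes. For Alb the heterozygote and wild-type means were the same to 2 decimals.

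Rbp4 encodes the retinol carrier of plasma, known in mice to be made in adipose tissue as well as in liver. It read 6.16, 6.16, 5.89 and 5.97 in mutants, 6.40, 6.75, 6.38 and 6.36 in heterozygotes and 6.94, 6.60, 6.41 and 6.65 in wild-type mice. Every mutant lay below every control, at a level under the array median on all 12 arrays, where RMA compresses differences. Rbp4 fell 1.52-fold against wild type (6.05 ± 0.13 in mutants and 6.65 ± 0.22 in wild-type mice, SD, n = 4 each; log2 fold change -0.60, SE 0.11, limma adjusted p = 0.00528). Without mutant replicate 3 it was 1.47-fold lower (limma adjusted p = 0.0132). Against heterozygotes the 1.35-fold difference did not pass (log2 fold change -0.43, 95% interval -0.67 to -0.19, limma adjusted p = 0.0652), nor did that between heterozygotes and wild type (log2 fold change -0.18, 95% interval -0.42 to 0.07, limma adjusted p = 0.578). Adipose markers, as a list of 7, summed to 1034.6 to 1725.1 in mutants, 1148.4 to 1256.5 in heterozygotes and 1100.7 to 2769.2 in wild-type mice. Wild-type replicates 1 and 4 had the highest sums and the highest Rbp4 of their group, whereas heterozygote replicate 2 had the highest Rbp4 and the lowest sum of its group, and mutant replicate 2 had the highest sum of its group without the highest Rbp4. With wild-type replicates 1 and 4 left out, Rbp4 was 1.38-fold lower in mutants and not called (limma adjusted p = 0.0644). These arrays were picked after their values were seen and are the highest in Rbp4 of their group, so a smaller difference was bound to follow, and wild type was left with 2 arrays. In limma 0 of the 7 adipose markers were called and 3 had an unadjusted p under 0.05, with Retn, the resistin gene, moving most (log2 fold change -1.18, limma adjusted p = 0.0766), and the part of adipose tissue in the Rbp4 result was not tested.

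**Figure D2:**
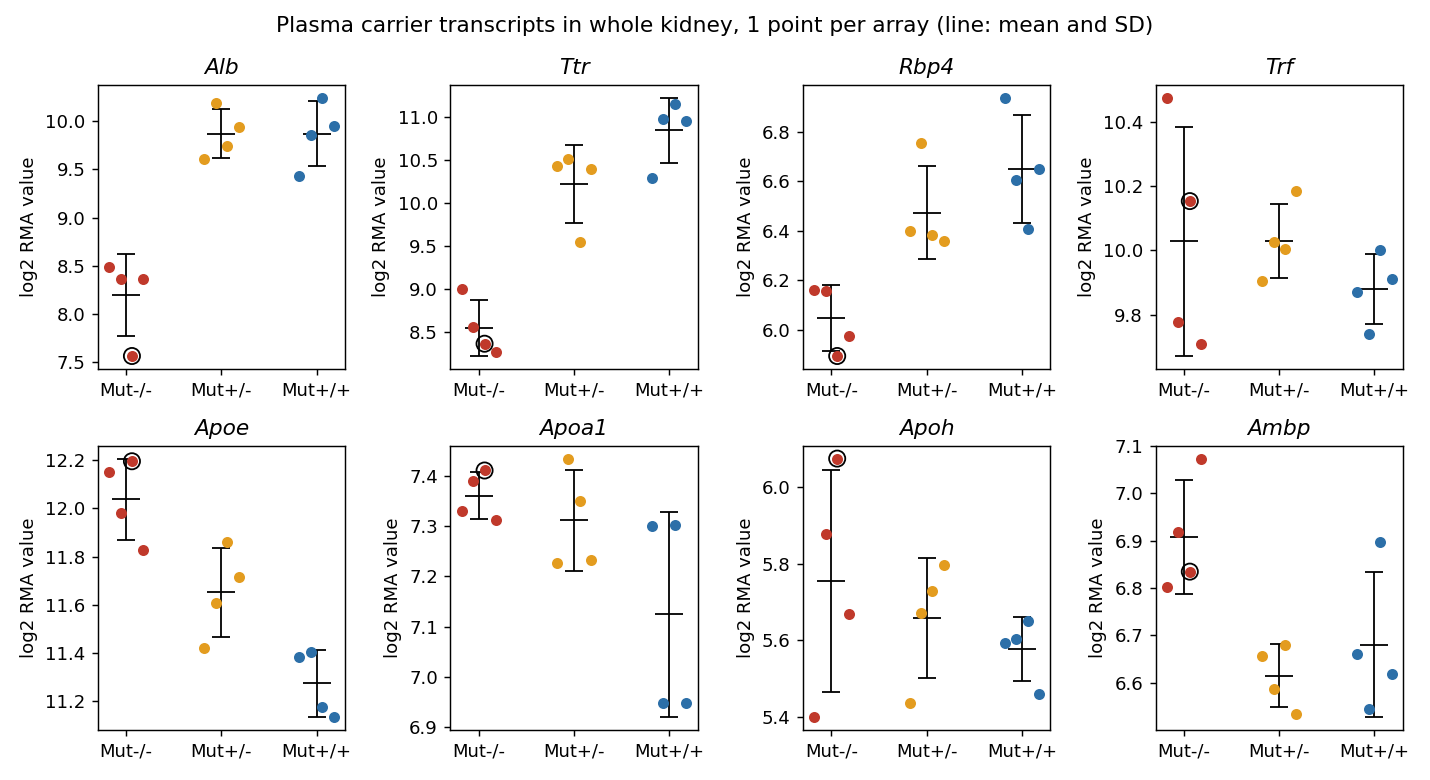
Log2 RMA value of the 8 plasma carrier genes on each array, 1 panel per gene with its own vertical axis, mutants left, heterozygotes in the middle and wild-type mice right. Lines give the mean and SD of 4 arrays, and the ring marks mutant replicate 3. Alb, Ttr and Rbp4 of the mutants lie below all controls, and Apoe of the mutants lies above all wild-type arrays.

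Apoe encodes apolipoprotein E, the ligand by which receptors of the low-density lipoprotein receptor family take up remnant particles, and is made by macrophages, astrocytes and steroid-producing cells besides hepatocytes. It read 12.15, 11.98, 12.20 and 11.83 in mutants, 11.42, 11.61, 11.86 and 11.72 in heterozygotes and 11.38, 11.41, 11.18 and 11.14 in wild-type mice. Mutants and heterozygotes both lay wholly above wild type, and mutants and heterozygotes overlapped on 1 array each. Apoe rose 1.7-fold against wild type (12.04 ± 0.17 in mutants and 11.27 ± 0.14 in wild-type mice, SD, n = 4 each; log2 fold change 0.76, SE 0.10, limma adjusted p = 0.000728), and 1.64-fold without mutant replicate 3 (limma adjusted p = 0.00181). The steps were of similar size: mutants were 1.31-fold above heterozygotes (log2 fold change 0.39, 95% interval 0.17 to 0.61, limma adjusted p = 0.0673) and heterozygotes 1.3-fold above wild type (log2 fold change 0.38, 95% interval 0.16 to 0.60, limma adjusted p = 0.196), neither past the threshold. Leaving out mutant replicate 4 brought the first of these to an adjusted p = 0.033 in limma. That array was the lowest mutant in Apoe, so a larger difference was bound to follow. It was the only 1 of 22 settings that called this difference, and the limma adjusted p reached 0.219 in another.

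Macrophage markers, as a list of 13, summed to 3182.1 to 5764.5 in mutants, 3274.5 to 4749.9 in heterozygotes and 3040.8 to 3640.2 in wild-type mice. Of these 13 genes 2 rose and 1 fell in mutants against wild type, and 8 lay above the array median on every array. Lyz2, the lysozyme gene of myeloid cells, moved most, 2.4-fold higher (limma adjusted p = 0.0281), and this call was lost without mutant replicate 2 or 4 or wild-type replicate 2, 3 or 4 (up to 0.0847). The part of macrophages in the Apoe values was not tested.

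Apoa1 encodes the main protein of high-density lipoprotein. It ran from 7.31 to 7.41 in mutants, from 7.23 to 7.43 in heterozygotes and from 6.95 to 7.30 in wild-type mice. The mutants lay just above wild type without overlap, but the 1.18-fold difference did not pass (log2 fold change 0.24, 95% interval 0.05 to 0.42, limma adjusted p = 0.107). The wild-type arrays formed 2 pairs, at 7.30 in replicates 1 and 3 and at 6.95 in replicates 2 and 4. Apoh encodes apolipoprotein H, which binds anionic phospholipids. Its values were dim, from 5.40 to 6.07 in mutants, 5.44 to 5.80 in heterozygotes and 5.46 to 5.65 in wild-type mice, and the groups overlapped (log2 fold change 0.18 in mutants against wild type, 95% interval -0.08 to 0.44, limma adjusted p = 0.399). Its highest value was that of mutant replicate 3, and without that array the difference from wild type was 0.07.

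Trf encodes transferrin, the iron carrier of plasma. It read 10.47, 9.78, 10.15 and 9.71 in mutants, 9.90, 10.03 and 10.18 in heterozygote replicates 1, 2 and 4 and 9.87, 9.74 and 9.91 in wild-type replicates 1, 2 and 4. Heterozygote replicate 3 lay between the first pair of its group, and wild-type replicate 3 was the highest of its group, below heterozygote replicate 2. The mutants held both the highest and the lowest values, so their SD of 0.36 exceeded the 0.12 of heterozygotes and the 0.11 of wild-type mice; this difference in spread was not tested. The difference from wild type did not pass (log2 fold change 0.15, 95% interval -0.14 to 0.44, limma adjusted p = 0.561), and it lay at -0.0016 without mutant replicate 1. Ambp encodes a precursor that is cut into a haem-binding microglobulin and the protease inhibitor bikunin. It ran from 6.80 to 7.07 in mutants, from 6.53 to 6.68 in heterozygotes and from 6.54 to 6.90 in wild-type mice, below the array median on all 12 arrays. Ambp stood 1.17-fold above wild type (log2 fold change 0.23, 95% interval 0.06 to 0.40, limma adjusted p = 0.0871) and 1.23-fold above heterozygotes (log2 fold change 0.29, 95% interval 0.12 to 0.46, limma adjusted p = 0.0684), with no overlap between mutants and heterozygotes, and neither passed. Without wild-type replicate 3, the highest of that group, both were called in limma (adjusted p = 0.0256 and adjusted p = 0.0379). A larger difference from wild type was bound to follow. No wild-type array enters the difference from heterozygotes, which stayed at 0.29, so only its estimate of spread and the adjustment changed.

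**Figure D3:**
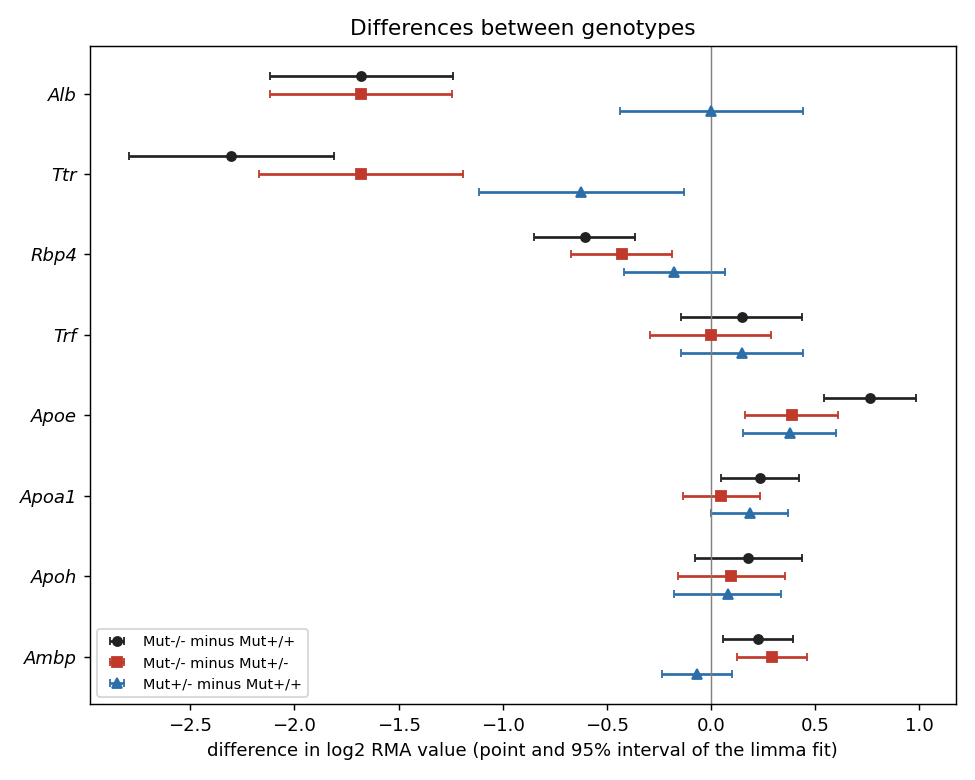
Difference in log2 RMA value between genotypes for each of the 8 genes (horizontal axis), with the 95% interval of the limma fit. Black circles give mutants minus wild type, red squares mutants minus heterozygotes and blue triangles heterozygotes minus wild type. Alb and Ttr lie far left of 0 in both mutant differences, Alb of heterozygotes lies at 0, and Apoe lies right of 0 in all 3.

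Alb and Ttr were chosen with their low mutant values known, so the counts that involve mutants are given for the other 6 genes. These 6 were also listed with earlier results of these data known. Their counts beside the shares of all genes are therefore a description and no test of the list. Between mutants and wild-type mice 2 of the 6 passed an adjusted p of 0.05, Rbp4 lower and Apoe higher, beside 9.66% of all genes tested, with 6.69% lower and 2.96% higher. At an unadjusted p under 0.05 there were 4 of the 6, beside 24.4% of all genes. Between mutants and heterozygotes 0 of the 6 passed in the limma fit, beside 2.54% of all genes, with 1.46% lower and 1.07% higher, and 3 had an unadjusted p under 0.05, beside 15.4%. Between heterozygotes and wild-type mice 0 of the 8 passed in the limma fit, beside 0.135% of all genes (0.0702% lower and 0.0652% higher). Of these 8, Ttr, Apoe and Apoa1 had an unadjusted p under 0.05, beside 11.3% of all genes. All arrays of the groups were apart in 3 of the 6 for mutants against wild type, beside 14.7% of all genes, and in 2 of the 6 for mutants against heterozygotes, beside 9.69%. For heterozygotes against wild type they were apart in 1 of the 8, Apoe, beside 8.44%. The median difference of the 8 was 0.16 for mutants against wild type, beside 0.00 over all genes, since 5 of the 8 were higher and 3 lower. These comparisons share samples: the same mutants enter the first pair and the same wild-type mice the first and the last.

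The related lists below are to be read beside the 6.69% of all genes that were called lower and the 2.96% called higher in mutants against wild type. Of 35 measured genes of other plasma proteins secreted by the liver, 0 fell and 2 rose in mutants against wild type with limma, and their median difference was 0.05. At an unadjusted p under 0.05 there were 3 lower and 2 higher. The risers were Lrg1, a glycoprotein gene of the acute phase, 1.48-fold higher (limma adjusted p = 0.0347), and the coagulation factor gene F10, 1.23-fold higher (limma adjusted p = 0.0269). The call of Lrg1 was lost when any of 6 single arrays was left out (limma adjusted p up to 0.089), and that of F10 without mutant replicate 2 or wild-type replicate 2 or 4 (up to 0.0869). Plasma protein genes outside the list of 35 were not searched as a set. Besides Alb, Ttr and Rbp4, 2 of them named here were lower in mutants than in wild type. These were Apob, 1.64-fold lower and counted below with the lipoprotein genes, and the coagulation factor gene F5, 1.96-fold lower and picked below for its likeness to Ttr. Hepatocyte markers, counted over 14 genes, included 2 that fell and 0 that rose, with a median of 0.00. They were faint in these kidneys, 9 of the 14 lying below the array median on every array. Their summed level was 2346.4 to 3187.0 in mutants, 3315.0 to 3591.6 in heterozygotes and 3395.6 to 3915.0 in wild-type mice. Apob alone made up 1004.2 to 1634.9 of this in mutants, 1949.3 to 2036.3 in heterozygotes and 1888.7 to 2236.6 in wild-type mice. The other 13 markers summed to 1342.2 to 1876.1 in mutants, 1365.7 to 1608.0 in heterozygotes and 1506.8 to 1690.1 in wild-type mice, so without Apob the groups overlapped. The part of liver-type transcripts in the Alb and Ttr values was not tested.

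Lipoprotein and cholesterol transport genes numbered 24, of which 3 fell and 0 rose against wild type (median -0.07). Apob, whose protein is the scaffold of chylomicrons and low-density lipoprotein, fell 1.64-fold (10.34 in mutants and 11.05 in wild-type mice; limma adjusted p = 0.0018), opposite to Apoe, and was also lower than in heterozygotes (log2 fold change -0.62, limma adjusted p = 0.0102). The sorting receptor gene Sort1 fell 1.23-fold (limma adjusted p = 0.015). The apolipoprotein E receptor gene Lrp8 fell 1.16-fold (limma adjusted p = 0.0352), and this call was lost on leaving out any of 6 single arrays (up to 0.107).

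Retinoid transport and metabolism genes numbered 25, of which 3 rose and 2 fell (median 0.04). Aldh1a1, which encodes a retinal dehydrogenase that makes retinoic acid, rose 1.98-fold (9.81 in mutants and 8.82 in wild-type mice; limma adjusted p = 0.000237), and its close relative Aldh1a7 rose 1.63-fold (limma adjusted p = 0.00894). The arrays can confuse this pair. Rdh11, a retinol dehydrogenase gene, fell 1.27-fold (limma adjusted p = 0.0107) and Rxrg, a retinoid X receptor gene, 1.26-fold (limma adjusted p = 0.0205). Both were also lower in heterozygotes than in wild type, uncalled (log2 fold change -0.27 and -0.23, limma adjusted p = 0.2135 and 0.3035). Mutants against heterozygotes gave -0.08 and -0.11. Rxrg was no longer called when mutant replicate 2 or wild-type replicate 2 or 4 was left out (up to 0.0665). Its means of 5.89 in mutants and 6.23 in wild-type mice lay under the array medians, where RMA compresses differences.

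Iron transport and storage genes numbered 27, of which 3 rose and 2 fell (median 0.04), while Trf itself was not called. Blvrb, which encodes biliverdin reductase B, rose 2.28-fold (limma adjusted p = 0.000911) and the ferritin light chain gene Ftl1 1.22-fold (limma adjusted p = 0.0405). Blvrb was also higher in heterozygotes than in wild type, uncalled (log2 fold change 0.84, limma adjusted p = 0.0796). Between mutants and heterozygotes Blvrb differed by 0.34 (limma adjusted p = 0.345). The Ftl1 call was lost on leaving out any of 7 single arrays (up to 0.118). The metal transporter gene Slc39a8 fell 1.36-fold (limma adjusted p = 0.00949) and Tmprss6, a hepcidin-regulating protease gene, 1.29-fold (limma adjusted p = 0.00331).

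Among 15 genes of thyroid hormone binding and uptake, the hormone carried by transthyretin and albumin, 1 rose and 3 fell (median -0.12). The deiodinase gene Dio1 was 4.05-fold lower (limma adjusted p = 0.000329), and the organic anion transporter gene Slco1a4 fell 1.56-fold (limma adjusted p = 0.00708). Slco1a4 averaged 6.09 in mutants and 6.73 in wild-type mice, under the array medians, where RMA compresses differences. Slc7a8, an amino acid transporter gene, fell 1.4-fold (limma adjusted p = 0.0384), lost on leaving out any of 8 single arrays (up to 0.114), and Slc7a5, of the same family, rose 1.26-fold (limma adjusted p = 0.00657). Slc7a8 was as low in heterozygotes, uncalled against wild type (log2 fold change -0.50, limma adjusted p = 0.195). Mutants and heterozygotes differed by 0.01 in Slc7a8. Of 9 genes of the tubular uptake of filtered proteins 5 fell and 0 rose (median -0.26), with the receptor-associated protein gene Lrpap1 1.31-fold, the cubilin gene Cubn 1.28-fold, the adaptor gene Dab2 1.23-fold and the recycling gene Rab11a 1.2-fold lower (limma adjusted p = 0.00932, 0.00401, 0.0198 and 0.014). The Dab2 call was lost on leaving out wild-type replicate 4 (limma adjusted p = 0.0693) and with the mean of its probe sets (log2 fold change -0.17, limma adjusted p = 0.34).

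Of 17 liver-enriched transcription factor genes 1 rose and 1 fell (median 0.02). The bile acid receptor gene Nr1h4 rose 1.29-fold (limma adjusted p = 0.0468) and Nfia fell 1.18-fold (limma adjusted p = 0.0356). Leaving out any of 9 single arrays ended the Nr1h4 call (up to 0.11), and any of 8 ended that of Nfia (up to 0.0952). In heterozygotes against wild type 0 of the 152 genes of these 7 lists were called by limma, and 24 had an unadjusted p under 0.05, beside 11.3% of all genes. Between mutants and wild type 6 of the 23 genes named from these lists, Aldh1a1, Apob, Blvrb, Cubn, Dio1 and Tmprss6, were called under every setting tried, and 15 lost their call without mutant replicates 2 and 3 and 15 without wild-type replicates 1 and 4. Among those 15 and 15 were Aldh1a7 (limma adjusted p = 0.082 and 0.0895) and Slco1a4 (limma adjusted p = 0.0545 and 0.0724). Without mutant replicates 2 and 3 the log2 fold change shrank by more than 1.5 times for Lrg1, to 0.19, Slco1a4, to -0.41, Rxrg, to -0.20, and Slc7a8, to -0.23. Without mutant replicate 3 alone Dio1 was -1.73, Cubn -0.29 and Lrpap1 -0.29, all still called.

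**Figure D4:**
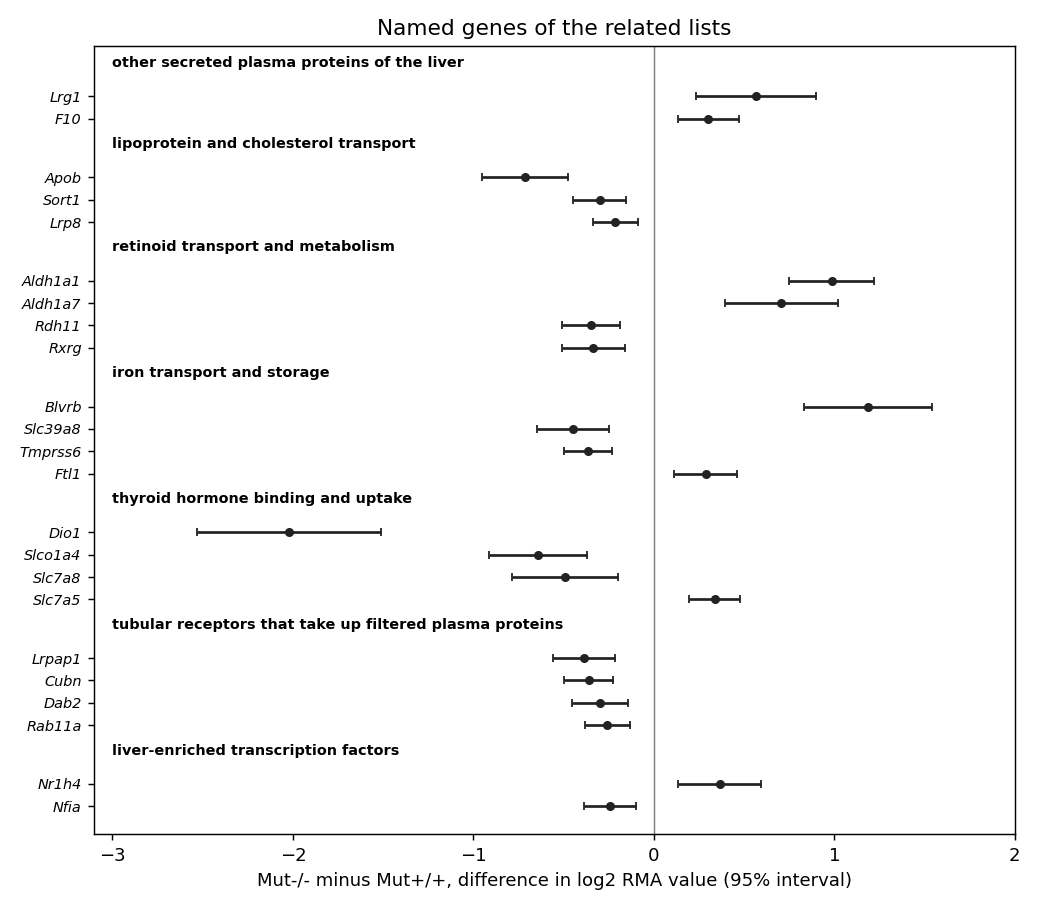
Difference in log2 RMA value of mutants minus wild-type mice (horizontal axis, 95% interval of the limma fit) for the called genes with the largest changes in 7 related gene lists. Dio1 at -2.02 and Apob at -0.71 lie left of 0, and Blvrb at 1.19 and Aldh1a1 at 0.99 right of it.

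The genes most like Alb and Ttr over the 12 arrays were taken from 14661 named genes by the highest Pearson r, a description in which the difference between genotypes is the main part. For Alb they were the kinase gene Hipk2 (r = 0.96), the cap-binding protein gene Ncbp2 (r = 0.95), the anion exchanger gene Slc26a4 (r = 0.95) and Gclm of glutathione synthesis (r = 0.95), and without mutant replicate 3 the 4 values lay between 0.92 and 0.93. For Ttr they were the coagulation factor V gene F5 (r = 0.97), the protease gene Adam9 (r = 0.97), Tmem184c (r = 0.96) and Efcab14 (r = 0.96). F5, which reached at most 6.83 in mutants and was at least 7.26 in wild-type mice, was 1.96-fold lower in mutants than in wild type. The other 7 were from 1.16-fold to 1.57-fold lower, and all of these genes, F5 included, differed less in size than Alb or Ttr. Within genotypes, as deviations from the group means on the same 12 arrays, r ranged from 0.54 for Slc26a4 with Alb to 0.78 for F5 with Ttr. The genes were picked by an r that includes these deviations, so this range is no separate support. The r within genotypes was not computed without mutant replicate 3.

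Of 14 proximal tubule markers 2 fell and 0 rose in mutants against wild type. Slc7a13, the marker of this list below the array median on every array, moved most (log2 fold change 0.52, limma adjusted p = 0.0971). It was called in 2 of 22 settings, among them that without mutant replicate 3 (0.67, limma adjusted p = 0.0303). The 14 summed to 57720.6 in mutant replicate 3 and 66310.8 to 68980.2 in the other mutants. In heterozygotes the sum was 65791.6 to 69284.5 and in wild-type mice 67301.3 to 67891.0. Of 11 other nephron markers 4 fell and 1 rose, and Calb1, the calbindin gene of the distal tubule, moved most, 2.02-fold lower (limma adjusted p = 0.0203). Its call was lost without wild-type replicate 3 or 4 (up to 0.0568). Its log2 fold change of -1.02 was -0.74 without mutant replicate 3, still called, and -0.48 without mutant replicates 2 and 3 (limma adjusted p = 0.0563), and it was not called without wild-type replicates 1 and 4 (limma adjusted p = 0.119). The 11 markers summed to 27004.5 to 30575.0 in mutants, or 29969.3 to 30575.0 without replicate 3, against 31651.5 to 33314.9 in heterozygotes and 32847.6 to 33581.4 in wild-type mice, so the sum was lower in every mutant. A linear sum is weighted towards bright genes such as Calb1. Gene by gene, 4 of the 11 were lower and 4 higher in mutants against wild type at an unadjusted p under 0.05 in limma (median -0.07). In limma 0 of 7 adrenal, 0 of 6 blood cell and 0 of 6 pancreas markers were called, and 0, 2 and 0 of them had an unadjusted p under 0.05; Cyp11b1, S100a8 and Ctrb1 moved most, with log2 fold changes of 1.84, 0.78 and 0.12 and limma adjusted p = 0.361, 0.427 and 0.337. Mutant replicate 3 carried the Cyp11b1 value, which was 0.14 without it (limma adjusted p = 0.703), and mutant replicate 2 that of S100a8, which was -0.0338 without it.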

How the data were processed

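Whole kidney RNA was measured on 12 Affymetrix mouse gene arrays, per the sample descriptions; the labelling text names a human array. The deposited values are on the log2 scale, 1 per probe set and array, computed with RMA; Expression Console 1.2.1 is the software named in the submitters' processing notes. This method subtracts background, equalises arrays and compresses differences near background. No genome build is named for them in these sources. Groups came from the sample titles, and nothing beyond them says how the mice were bred or batched.

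Of 35552 probe sets 21785 had 1 gene symbol in the platform annotation, 1621 several and 12146 none, and the brightest per symbol gave 19934 genes. All 12 columns were used. Genotypes were compared in R 4.3.3 with limma 3.58.1 in 1 fit of 3 groups (9 residual and 4.408 prior degrees of freedom), with Benjamini-Hochberg adjustment over all genes and a threshold of 0.05.

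The 8 genes, 7 related gene lists and 8 marker lists were chosen with earlier results of these data known. Named are the 8 genes, Mmut, up to 4 called genes per list with the largest change, 1 gene per marker list and the 4 genes most like Alb and Ttr with a group mean of at least 6, leaving out unnamed gene models, small RNAs and receptor segments. The list of secreted plasma proteins also held the intracellular Rbp7. The fit was tested on simulated data. Alternatives were the replicate block, each array left out, a filter on group means, averaging a gene's probe sets, weighting arrays, a trended robust prior, only the groups compared, centring on medians and quantile normalisation. Leaving out mutant replicates 2 and 3, or wild-type replicates 1 and 4, was added after seeing the data. Figures used Python 3.11.15 and matplotlib 3.10.9.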

Additional observations from a re-analysis of the deposited data

Results flagged for a closer look

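Among the 8 genes 3 values lay far from the other 3 arrays of their group by Dixon's test. Alb of mutant replicate 3 was 7.56, against 8.36 to 8.49 in the other mutants, on the array with adrenal markers. Ttr of heterozygote replicate 3 was 9.55, against 10.40 to 10.51 in the other heterozygotes. Rbp4 of heterozygote replicate 2 was 6.75, against 6.36 to 6.40 in the others.

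Marker sums, on the linear scale, had 6 such values. Mutant replicate 3 was high in adrenal markers at 15468.1, against 480.7 to 528.0 in the other mutants, and low in markers of other nephron segments at 27004.5, against 29969.3 to 30575.0. Mutant replicate 2 was high in adipose markers at 1725.1, against 1034.6 to 1096.6. Hepatocyte markers were low in heterozygote replicate 1 at 3315.0, against 3564.4 to 3591.6, and in wild-type replicate 1 at 3395.6, against 3850.1 to 3915.0. Proximal tubule markers were high in wild-type replicate 4 at 67891.0, against 67301.3 to 67320.6. In all 9 of 51 groups of 4 held such a value, where chance gives about 1 in 20.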

How the results depend on the processing

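Alb and Ttr stayed lower in mutants than in both controls under all 22 settings, with log2 fold changes against wild type from -1.86 to -1.45 and from -2.52 to -2.20. Apoe stayed higher than wild type (0.71 to 0.83) and called. Rbp4 ran from -0.69 to -0.46 and was called in all settings except that without wild-type replicates 1 and 4. Against heterozygotes Rbp4 was called with the replicate block (adjusted p = 0.0437) and without wild-type replicate 1 (adjusted p = 0.041), and Ambp with array weights (adjusted p = 0.0465) and quantile normalisation (adjusted p = 0.0433). The Rbp4 difference itself was -0.43 in both of its settings, as in the main fit, so only the estimate of spread and the adjustment changed. Some differences changed sign, and that of S100a8, 0.78 against wild type in the main fit, was not near 0. Alb of heterozygotes against wild type was -0.0389 with array weights, -0.0129 with centred arrays and -0.18 without wild-type replicates 1 and 4, and ran from -0.15 to 0.13 without single arrays. Trf of mutants against heterozygotes was 0.0040 with centred arrays and 0.0612 without mutant replicates 2 and 3 (-0.15 to 0.10 without single arrays), and against wild type it ran from -0.0016 to 0.25 without single arrays. Without mutant replicates 2 and 3 Apoh was -0.043 against wild type and -0.12 against heterozygotes (-0.0092 to 0.22 without single arrays), and S100a8 was -0.15 (-0.0338 to 1.11 without single arrays). Ambp of heterozygotes against wild type ran from -0.11 to 0.0065. The cause of these changes was not tested.

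Called genes between mutants and wild type numbered 1925, and 1154 with only these groups in the fit, 1075 without mutant replicates 2 and 3, 636 without wild-type replicates 1 and 4, and 1019 to 1928 without single arrays, lowest without wild-type replicate 4. Between mutants and heterozygotes they numbered 506, and 191 with only these groups, 309 without wild-type replicates 1 and 4, and 229 to 592 without single arrays. Between heterozygotes and wild type they numbered 27, and 7 with the replicate block, 163 with array weights, 42 with the trended prior, 78 with only these groups, 84 without mutant replicates 2 and 3, 3 without wild-type replicates 1 and 4, and 5 to 67 without single arrays. Same-numbered arrays of different groups did not deviate together (correlations from -0.24 to 0.17), and 0 of 12 arrays matched their own number best, so the numbers were not taken as pairs; the replicate block gave 1552 called genes between mutants and wild type and 405 between mutants and heterozygotes. Each of the 8 genes had 1 probe set, so no second probe set could be tried, and Apoh, with all group means under 6, has no value under that filter.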
